A study of Homo sapiens with 25 samples.

Results

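The H3K27ac landscape of HCC364 was compared with that of NCI-H2087, NCI-H358 and NCI-H441, which are, like HCC364, lines from human lung adenocarcinoma. Genes and regions were chosen from the H3K27ac peak lists alone. The peaks of the 4 lines on chromosomes 1 to 22 and X were merged wherever they overlapped by at least 1 bp, which gave 84925 regions. A gene was called acetylated in a line when a peak lay within 1 kb of an annotated start or end of the gene, and a region was called distal when no such end of a protein-coding gene lay within 1 kb. Of 19974 protein-coding genes, 882 were members, namely 549 acetylated at an end only in HCC364 and 333 acetylated in all lines but HCC364. Of 70338 distal regions, 20690 were members, namely 17315 acetylated only in HCC364 and 3375 acetylated in all lines but HCC364. These regions are called gained and lost in HCC364 below, which compares lines and describes no course in time.

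All 4 lines were untreated and grown in the same serum-containing medium, and chromatin was precipitated with the same lot of H3K27ac antibody. Besides H3K27ac, the transcription factor NKX2-1 and the histone mark H3K4me1 were profiled in HCC364 and in each of the other lines, and 8 more antibodies in NCI-H2087. The series holds 25 samples, of which 20 have a peak list and 5 are input libraries not analysed here. Each antibody in each line is 1 library, so no difference between lines has a replicate check, and what is typical of HCC364 cannot be told apart from what is typical of 1 library of it.

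H3K27ac is acetylation of lysine on the tail of histone H3 and marks promoters and enhancers in use. H3K4me1 marks enhancers whether or not they are acetylated, so a region can keep H3K4me1 where H3K27ac is not found. In lung epithelium, NKX2-1 is the lineage factor of alveolar and airway cells, and forkhead factors such as FOXA1 open the chromatin it binds.

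The H3K27ac list of HCC364 was the longest, with 56384 peaks over 94.9 Mb, against 51482, 47136 and 47228 peaks over 76.2, 74.4 and 69.96 Mb in NCI-H2087, NCI-H358 and NCI-H441. The lowest local background of each list, solved from the fold and p of its peaks, serves as its relative depth. It was 2.73 fragments in HCC364, against 2.59, 2.54 and 2.78, so HCC364 did not stand apart in depth by this measure. The label of lung adenocarcinoma was checked against gene lists. The lung lineage gene NKX2-1 itself carried 32290 bp of H3K27ac peaks at its ends in HCC364, against 33646, 14131 and 25710 bp, and 16 of 20 genes of epithelial keratins and junctions were acetylated in HCC364, against 20 of 20 in each other line.

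Gained distal regions outnumbered those acetylated in all 4 lines. The 549 genes acetylated only in HCC364 were 2.75% of all genes, and the same count was 283 for NCI-H2087, 279 for NCI-H358 and 147 for NCI-H441. The 333 genes acetylated in all lines but HCC364 were 1.67% of all genes, and here NCI-H358 had as many, 335, while NCI-H2087 had 192 and NCI-H441 274. Gained distal regions were 24.6% of all distal regions, 17315 in HCC364 against 7551, 8356 and 5378 in the other lines. Lost distal regions were 4.80%, 3375 in HCC364 against 1341, 2647 and 1372. A further 9870 genes and 11080 distal regions were acetylated in all 4 lines.

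List length bears on these counts. With the 40000 strongest peaks of each line, gained distal regions were 8674 in HCC364, against 4842, 7091 and 4488, and with 20000 peaks they were 3277, against 2159, 2883 and 1884. HCC364 had the highest count in both, and NCI-H358 the next. Lost distal regions kept a wider gap, with 3142 in HCC364 against 1170, 1993 and 982 at 40000 peaks and 1637 against 507, 821 and 459 at 20000. Genes lost in HCC364 numbered 368, against 249, 298 and 269, and 459, against 449, 364 and 317. Genes acetylated only in HCC364 numbered 505 and 700 in the same settings, against at most 278 and 352 in another line.

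**Figure D1:**
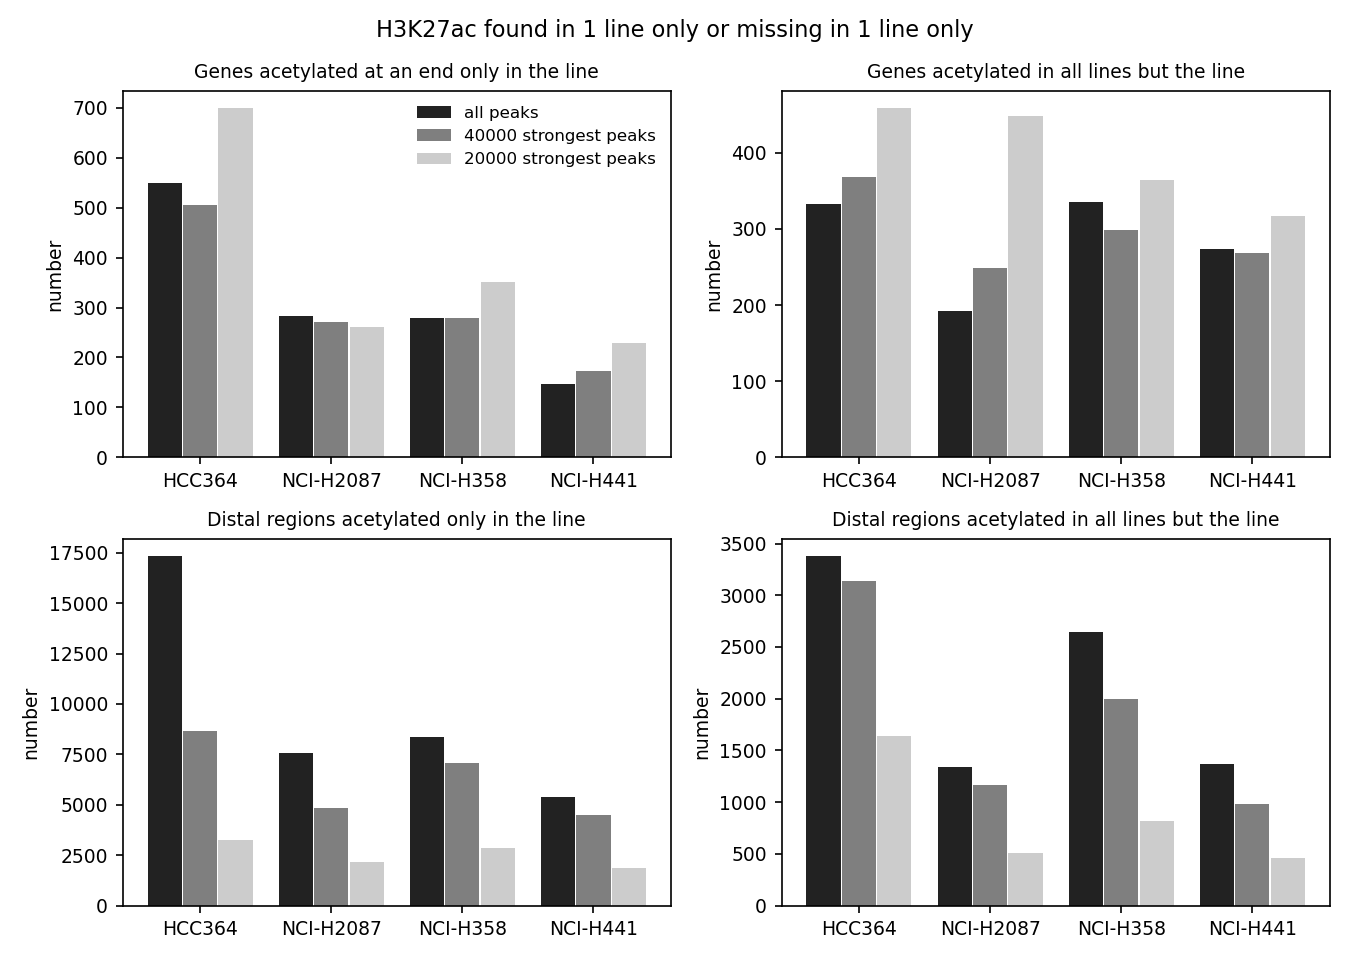
Number of genes (upper panels) and distal regions (lower panels) with H3K27ac only in the line named on the x axis (left) or in all lines but that one (right), for all peaks and for the 40000 and 20000 strongest peaks of each list. HCC364 has the tallest bar of each shade in both left panels and in the lower right panel, while in the upper right panel NCI-H358 reaches 335 with all peaks, against 333 in HCC364.

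Genes that organise epithelial cells stood among those acetylated in all lines but HCC364. Of the 20 epithelial genes, 4 were in this class, which holds 1.67% of all genes, and 0 were acetylated only in HCC364, a class of 2.75%. CLDN7, a claudin of tight junctions (chromosome 17, 7259903 to 7263213), carried 0 bp of H3K27ac peaks at its ends in HCC364, against 8188, 7898 and 8085 bp in NCI-H2087, NCI-H358 and NCI-H441. It had the longest acetylated ends of all 333 genes, ranked by the lowest of the other lines. ESRP1, a splicing regulator of epithelial isoforms (chromosome 8, 94641174 to 94707466), had 0 bp in HCC364, against 4437, 6327 and 5941 bp. GRHL2, a grainyhead factor that drives junction genes (chromosome 8, 101492439 to 101681200), had 0 bp, against 5489, 6112 and 3882 bp. OVOL2, a zinc finger repressor of mesenchymal genes (chromosome 20, 18024152 to 18059188), had 0 bp, against 793, 2438 and 1866 bp. OVOL2 left the class with the 20000 strongest peaks of each list and, like ESRP1, with windows of 500 bp on peak summits.

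NKX2-1 bound the ends of CLDN7, ESRP1, GRHL2 and OVOL2 in each other line and in none of the 4 cases in HCC364. H3K4me1 did not follow this. It was at the ends of CLDN7 in all 4 lines, at those of ESRP1 in HCC364 and in no other line, at those of GRHL2 in NCI-H441 alone and at those of OVOL2 in no line. GRHL2 was not wholly without the mark, since 4.66 kb within 25 kb of its ends was acetylated in HCC364, against 17.8, 20.8 and 13.1 kb. OVOL2 had no H3K27ac peak at all in that window in HCC364, against 1.11, 3.59 and 2.65 kb.

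The other 16 epithelial genes were acetylated in all 4 lines, but not to the same width. The following were singled out after their values were seen. The adhesion molecule gene EPCAM carried 468 bp at its ends in HCC364, against 3724, 4589 and 4877 bp. KRT8 and KRT18, neighbouring keratin genes of simple epithelia that share peaks, had 2644 and 2921 bp in HCC364, against at least 7222 bp in each other line. KRT19 did not show this, with 12228 bp in HCC364 against 12141, 11426 and 12239 bp. CDH1, which encodes E-cadherin, kept 8598 bp, against 9724, 13588 and 11110 bp, and CLDN4 was wider in HCC364 than in any other line, at 14201 bp against 8499, 12721 and 7830 bp. Over the whole list the median acetylated length within 25 kb of a gene was 15.1 kb in HCC364, against 17.8, 17.7 and 16.3 kb, where over all genes it was 4.26 kb, against 3.42, 3.20 and 3.18 kb.

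Some mesenchymal genes carried more H3K27ac in HCC364 than elsewhere. The list as a whole was near the level of all genes in HCC364 and under it in the other lines. Of 24 genes of this list, 15 were acetylated in HCC364, against 10, 10 and 12, or 62.5%, against 41.7%, 41.7% and 50%. Over all genes the shares were 58.7%, against 58.1%, 56.9% and 56.2%, so the HCC364 share was near that of all genes and the other lines were under theirs. Of the list, 2 genes were acetylated only there, a class that holds 2.75% of all genes. CDH2, which encodes N-cadherin (chromosome 18, 27932879 to 28177130), had 1372 bp at its ends in HCC364, against 0 bp in each other line, and 5 gained distal regions. The basic helix-loop-helix factor gene TWIST2 (chromosome 2, 238848085 to 238910534) had 1387 bp, against 0 bp, and 4 gained distal regions. Neither CDH2 nor TWIST2 remained in the class with the 20000 strongest peaks of each list, and CDH2 did not with −log10 q of at least 10. NKX2-1 was found at the ends of neither gene in any line. Among the others, picked after their values were seen, widths went in both directions. VIM, which encodes vimentin, had 9273 bp in HCC364, against 0, 240 and 0 bp. The receptor tyrosine kinase gene AXL had 18220 bp, against 1065, 1289 and 1299 bp, and TGFBI, a matrix protein gene induced by TGF-beta, had 18365 bp, against 5236, 1906 and 4987 bp. In the opposite direction, PDGFRB, a growth factor receptor gene of pericytes and fibroblasts, had 0 bp in HCC364, against 8424, 0 and 1200 bp. FAP, a fibroblast protease gene, had 1401 bp, against 1990, 1726 and 2518 bp, and FN1, which encodes fibronectin, had 4099 bp, against 0, 4208 and 4563 bp. Of the 24 genes, 8 were acetylated at their ends in all 4 lines, COL1A1 and ACTA2 among them, and 8 in no line, COL1A2 and COL3A1 among them. The list median within 25 kb was 3.91 kb in HCC364, against 1.62, 0.615 and 1.67 kb. Over all genes it was 4.26 kb, against 3.42, 3.20 and 3.18 kb.

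**Figure D2:**
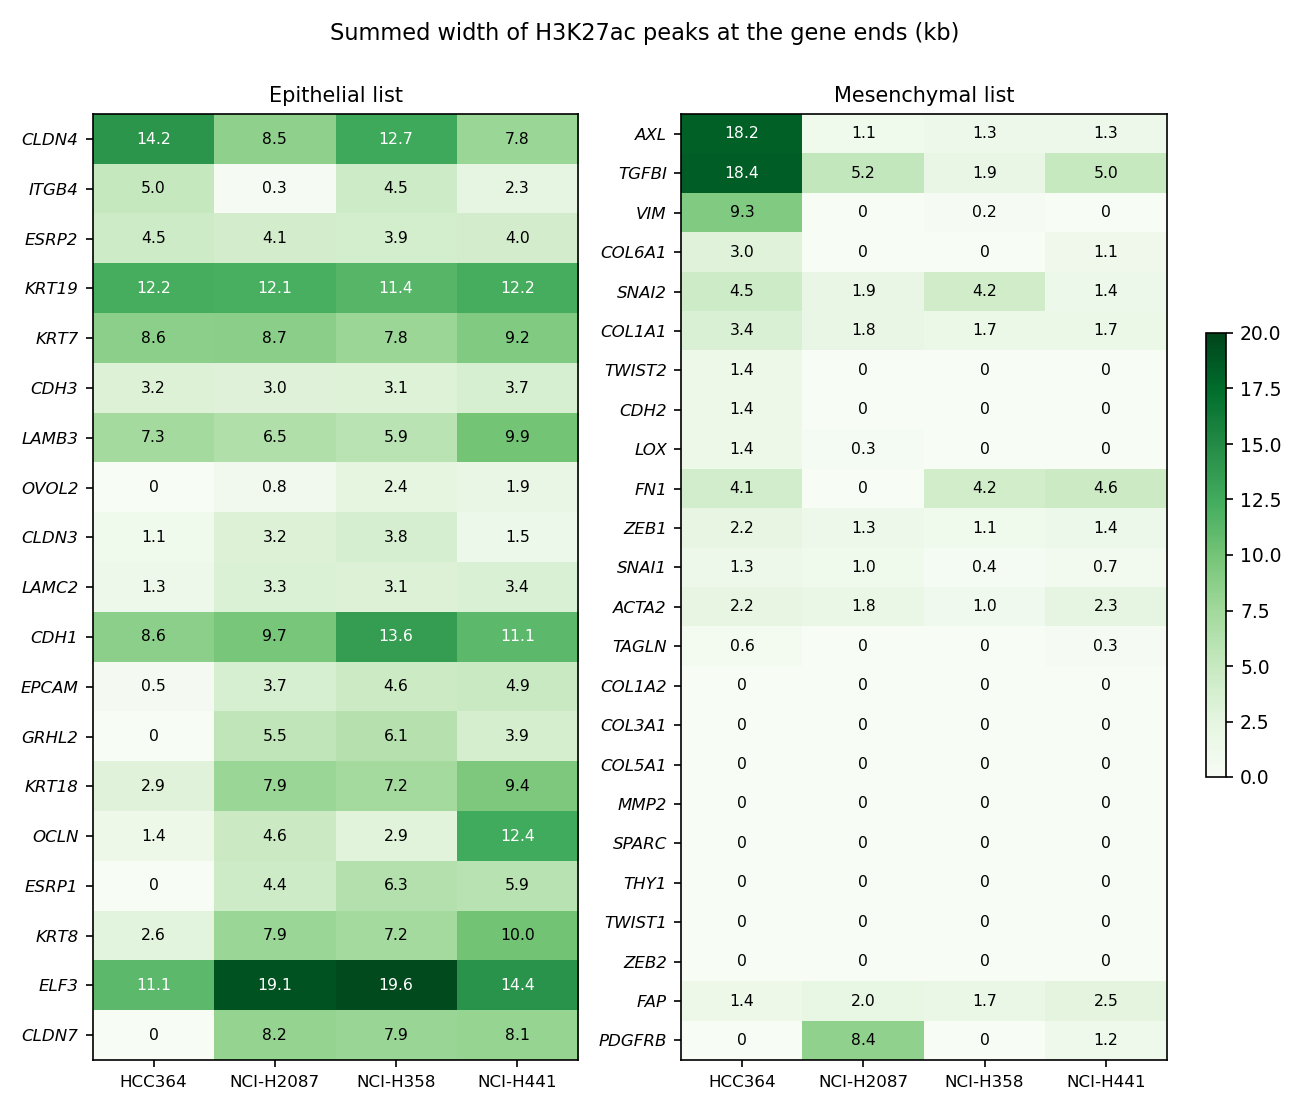
Summed width in kb of the H3K27ac peaks within 1 kb of either end of each gene (rows) in each line (columns, HCC364 at the left) for 19 genes of the epithelial and 24 of the mesenchymal list, with rows ordered by HCC364 minus the mean of the other lines. CLDN7, ESRP1, GRHL2 and OVOL2 are at 0 in HCC364 and above 0 in each other line, while AXL, TGFBI and VIM are widest in HCC364.

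A short sequence that the rule had not used was more frequent in promoters of the lost genes, though most of them lacked it. The letters CAGGTG, an E-box of the kind that the zinc finger repressors of the ZEB and SNAI families are known to bind, were searched on both strands of the RefSeq promoters, which run from 250 bases before to 50 bases after a gene's start (GRCh38.p14). A promoter was given for 15813 of the 19974 genes, and a match may share letters with a match of another motif beside it. CAGGTG was present in 105 of 271 promoters of genes acetylated in all lines but HCC364, or 38.7% (exact 95% interval 32.9 to 44.8%, which covers counting error only). It was present in 20.0% (13.9 to 27.3%) of promoters of genes acetylated in all lines but NCI-H2087, in 20.0% (15.3 to 25.4%) of those in all but NCI-H358 and in 19.0% (13.97 to 25.02%) of those in all but NCI-H441. Genes acetylated only in HCC364 had it in 19.5% (15.8 to 23.6%), against 23.96%, 22.5% and 26.1% for genes acetylated only in another line, genes acetylated in all 4 lines in 17.5% and all promoters in 19.9%.

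**Figure D3:**
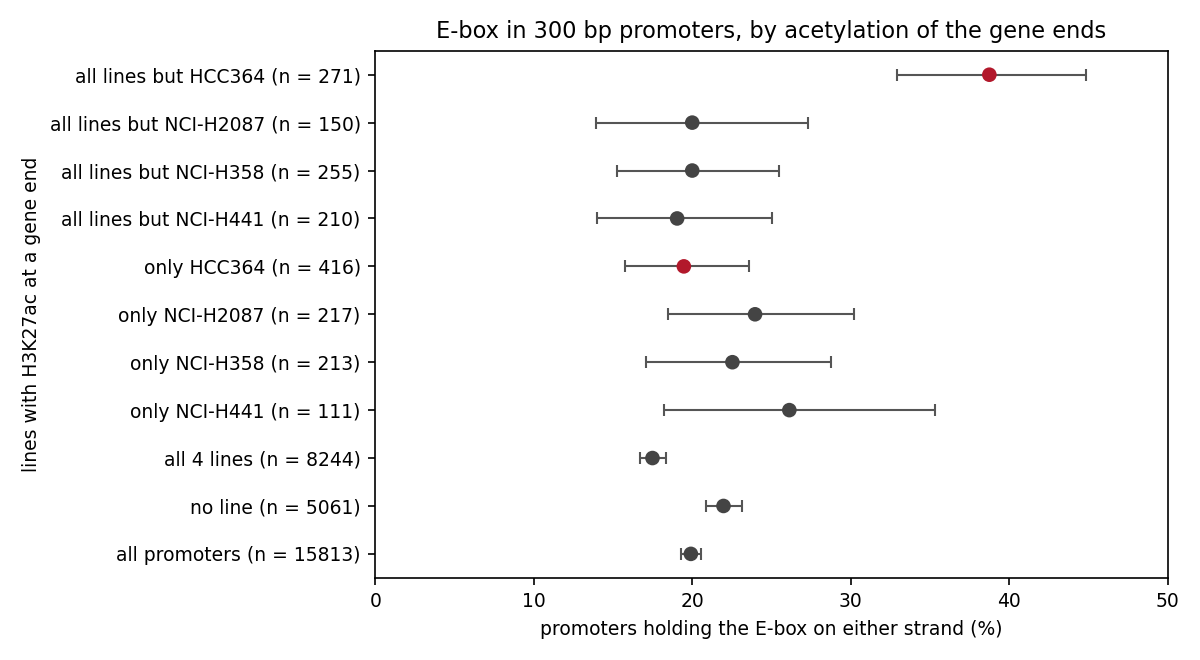
Share in percent of promoters that hold CAGGTG on either strand (points) with exact 95% intervals for counting error (bars), by the lines in which the gene ends were acetylated, with the classes of HCC364 in red. Genes acetylated in all lines but HCC364 stand at 38.7%, and the other classes lie between 17.5% and 26.1%.

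The difference between HCC364 and the mean of the other lines was 19.1 percentage points, where the other lines had an SD of 0.550 points (n = 3). With 1 value per line an exact two-sided permutation cannot go below p = 0.25, which it gave. At least 2 copies were present in 30 of the 271 promoters, or 11.1%, against 4.00%, 2.75% and 3.33% for genes lost in NCI-H2087, NCI-H358 and NCI-H441. Base composition moved little with the class. The median GC content was 63.7% for genes lost in HCC364, against 64.7%, 67% and 66.3% for those lost in the other lines. Within promoters of 60 to 70% GC, 49.5% of 91 held the E-box for genes lost in HCC364, against 17.0%, 26.0% and 21.4% for the other lines. Within those of under 50% GC the share was 17.3% of 52 promoters, against 6.25%, 8.33% and 21.4%, so NCI-H441 was higher there.

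No other motif searched was in excess by a like margin. The E-boxes CAGCTG and CACGTG were present in 17.7% and 4.06% of promoters of genes lost in HCC364, against 17.7% and 8.87% of all promoters. The grainyhead letters AACCNGTT were present in 1.48%, against 1.61% of all, those of NKX2-1, CACTTGA, in 1.11%, against 2.15%, and those of AP-1, TGANTCA, in 8.49%, against 5.75%. The 17 protocadherin gamma genes of the class share 1 annotated end, and without them the CAGGTG share was 40.4%. ZEB1, which encodes one of these repressors, was acetylated at its ends in all 4 lines, with 2223 bp in HCC364, against 1303, 1077 and 1423 bp. SNAI1 and SNAI2 were too, with 1289 bp, against 1017, 385 and 681 bp, and with 4514 bp, against 1902, 4221 and 1427 bp, while ZEB2 was acetylated at its ends in no line. A match of letters is a description, and nothing was measured here about what binds it.

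Promoters with at least 2 copies whose 300 bases were covered whole by H3K27ac in NCI-H2087, NCI-H358 and NCI-H441 and by 0 bp in HCC364 are shown by TMEM30B, MACC1, LAD1 and RAB25, with CLDN7 as a promoter covered in the same way but with no copy. They are chr14:61281289-61281588 on the minus strand (TMEM30B), chr7:20217335-20217634 minus (MACC1), chr1:201399275-201399574 minus (LAD1), chr1:156060910-156061209 plus (RAB25) and chr17:7263164-7263463 minus (CLDN7), from RefSeq, GRCh38.p14, each read 5′ to 3′ on the strand of its gene. Capitals mark CAGGTG or its reverse complement.
TMEM30B: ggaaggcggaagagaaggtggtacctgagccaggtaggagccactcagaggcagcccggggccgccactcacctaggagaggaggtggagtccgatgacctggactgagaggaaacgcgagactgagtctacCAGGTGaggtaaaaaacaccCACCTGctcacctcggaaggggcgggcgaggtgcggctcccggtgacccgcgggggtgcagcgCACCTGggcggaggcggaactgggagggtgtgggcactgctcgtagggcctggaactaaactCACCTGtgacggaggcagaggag
MACC1: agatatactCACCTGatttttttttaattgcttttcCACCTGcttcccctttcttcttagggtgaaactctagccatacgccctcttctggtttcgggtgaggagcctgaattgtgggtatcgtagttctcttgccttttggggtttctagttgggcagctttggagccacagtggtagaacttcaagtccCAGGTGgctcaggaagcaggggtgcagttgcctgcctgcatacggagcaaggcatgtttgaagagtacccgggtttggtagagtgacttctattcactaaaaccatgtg
LAD1: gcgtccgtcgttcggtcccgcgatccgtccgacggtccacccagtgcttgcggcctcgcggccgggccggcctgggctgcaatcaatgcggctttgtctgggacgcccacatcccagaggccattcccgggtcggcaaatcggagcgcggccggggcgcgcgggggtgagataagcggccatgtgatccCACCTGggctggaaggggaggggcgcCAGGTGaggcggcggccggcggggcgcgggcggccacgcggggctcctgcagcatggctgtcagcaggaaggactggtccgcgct
RAB25: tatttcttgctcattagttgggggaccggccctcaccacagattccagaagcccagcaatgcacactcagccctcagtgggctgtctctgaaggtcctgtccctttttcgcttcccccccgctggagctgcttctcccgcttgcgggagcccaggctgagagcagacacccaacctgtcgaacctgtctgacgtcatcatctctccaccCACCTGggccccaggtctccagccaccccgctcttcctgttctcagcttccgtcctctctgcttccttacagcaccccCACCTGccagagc
CLDN7: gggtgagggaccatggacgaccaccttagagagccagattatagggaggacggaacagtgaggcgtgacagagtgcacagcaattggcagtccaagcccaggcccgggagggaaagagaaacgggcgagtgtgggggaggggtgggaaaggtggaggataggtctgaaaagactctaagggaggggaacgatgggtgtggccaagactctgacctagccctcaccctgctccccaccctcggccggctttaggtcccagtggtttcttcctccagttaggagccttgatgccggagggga

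TMEM30B, a subunit of lipid flippases, holds 4 copies and had 0 bp of H3K27ac at its ends in HCC364, against 4384, 3327 and 3218 bp in NCI-H2087, NCI-H358 and NCI-H441. MACC1, a transcriptional regulator of the MET gene, holds 3 and had 0 bp, against 8080, 7955 and 6753 bp. LAD1, a protein of the epithelial basement membrane, holds 2 and had 0 bp, against 4345, 4404 and 3310 bp. RAB25, a small GTPase of epithelial recycling endosomes, holds 2 and had 0 bp, against 2354, 3074 and 2572 bp. In each of them HCC364 was without a peak within 1 kb of the ends and the other lines were close to each other. Some other promoters of the class with 3 copies were not covered whole. MYO5B and SIGIRR had 0 bp of H3K27ac over the 300 bases in every line, and FA2H had 36 bp in NCI-H2087 alone. RAB19 had 0 bp in HCC364, against 275, 119 and 300 bp.

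Of the 333 genes, the 12 with the longest acetylated ends held 9 genes besides CLDN7, MACC1 and ESRP1, of varied roles. PRSS8, a membrane serine protease, had 0 bp in HCC364, against 6719, 6558 and 7282 bp. The adhesion receptor gene ADGRG1 had 0 bp, against 6792, 13364 and 6303 bp, and CAPN8, a calpain of mucous cells, had 0 bp, against 9817, 5341 and 6109 bp. LTA4H, an enzyme of leukotriene synthesis, had 0 bp, against 6937, 5670 and 6052 bp, and MXI1, a MAX partner, had 0 bp, against 5817, 5094 and 5276 bp. S100P, a calcium-binding protein, had 0 bp, against 4381, 9175 and 8213 bp, TMPRSS4, a transmembrane protease, 0 bp against 4288, 6927 and 4258 bp, and RHOBTB3 and ITGBL1 completed the 12. These are calls at the gene ends. Of the 12, only CLDN7, ESRP1 and TMPRSS4 had an end region that was itself lost in HCC364. At the others HCC364 had a peak in the same merged region, outside 1 kb of the ends. With windows of 5 kb MACC1, PRSS8, RHOBTB3, LTA4H, CAPN8, MXI1, ITGBL1 and S100P left the class. S100P was acetylated within 25 kb over 10.1 kb in HCC364, against 13.5, 19.5 and 13.8 kb. PRSS8 had 8.25 kb, against 12.6, 10.55 and 12.5 kb. Within 25 kb RHOBTB3 was acetylated over 21.98 kb in HCC364, against 24.8, 17.2 and 16.2 kb, whereas TMPRSS4 had 0 kb, against 4.66, 10.3 and 7.17 kb.

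Further epithelial genes of the class, chosen after their values were seen, were the junction genes CLDN1, MARVELD3 and DSC2, the polarity gene LLGL2, the membrane protease gene ST14 and the factors GRHL1, OVOL1 and ZNF750. DSC2, a desmosomal cadherin, had 0 bp in HCC364, against 3773, 7730 and 5114 bp, and no acetylated length within 25 kb, against 4.17, 7.73 and 5.11 kb. GRHL1, a second grainyhead factor, had 0 bp, against 3387, 2363 and 2307 bp, and OVOL1 had 0 bp, against 1107, 1331 and 962 bp. Members of other lists in the class were 1 each of 24 WNT and Notch, 11 alveolar type 1, 21 axon guidance, 10 AP-1 and 20 immune genes. The class holds 1.67% of all genes. NOTCH3, a Notch receptor gene, had 0 bp, against 881, 1031 and 525 bp. RTKN2, of alveolar type 1 cells, had 0 bp, against 5430, 1090 and 1310 bp. The semaphorin receptor gene PLXNB1 had 0 bp, against 490, 982 and 299 bp, the AP-1 partner gene BATF 0 bp, against 1110, 297 and 1054 bp, and CD3E, a T cell receptor subunit, 0 bp, against 422, 2378 and 940 bp. BATF and CD3E did not remain in the class with 40000 peaks or with −log10 q of at least 10, and RTKN2 did not with −log10 q of at least 10. With 20000 peaks RTKN2, PLXNB1, BATF and CD3E were all outside the class, and PLXNB1 was so with windows of 5 kb.

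Most lost genes carried promoter marks in NCI-H2087. H3K4me3, the promoter mark, was found at the ends of 81.7% of the 333 genes in NCI-H2087 and RNA polymerase II at 69.4%. Over all genes the shares were 65.9% and 54.1%, and over genes acetylated in all 4 lines 98.5% and 94.7%. The class rested on the gene start where strand was known, since 214 of 271 genes, or 79.0%, were acetylated there. For 269 of the 333 genes the merged region at the end was itself lost in HCC364. In the other 64 genes, such as MACC1 and PRSS8, HCC364 had a peak in the same merged region that did not come within 1 kb of the end.

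The 549 genes acetylated only in HCC364 had narrower peaks, with a median summed width of 894 bp, and 25 of them reached 5 kb. By width they were led by LOC124904958, with 12900 bp in HCC364 and 0 bp in each other line, and RDH5, a retinol dehydrogenase (chromosome 12, 55720393 to 55724705), with 12856 bp. FGFR1, a fibroblast growth factor receptor (chromosome 8, 38411143 to 38468635), followed with 11661 bp. In these 3 genes an HCC364 peak reached the gene end from a merged region that other lines shared. At a 5 kb distance other lines also had peaks near all 3 of them.

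In other genes of the 12 widest the region at the gene end was itself private to HCC364. BNC2, a zinc finger gene of fibroblasts and keratinocytes (chromosome 9, 16409503 to 16870670), had 7248 bp in HCC364 and 37.0 kb within 25 kb of its ends, against 0, 4.57 and 1.71 kb. SLC35F3, a gene of a transporter family, had 8702 bp and 30.3 kb, against 2.52, 0.596 and 0.520 kb, and carried neither NKX2-1 nor H3K4me1 at its ends in any line. BNC2 left the class with windows of 5 kb, and SLC35F3 did so with windows of 500 bp on peak summits. Also among the 12 widest were UBXN11, LOC124901780, PBX4, ANXA8 and MAMLD1, whose end regions were shared with other lines and which left the class with windows of 5 kb. ANXA8 has a near-identical copy, so its peaks are uncertain.

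List members in the class were spread thinly, with 1 each of 13 basal and squamous, 15 gastric, intestinal and liver, 21 xenobiotic metabolism, 21 axon guidance, 19 TGF-beta and YAP, 15 alveolar type 2, 9 HOXD, 4 nuclear factor I and 23 MAPK and receptor kinase genes. The lists of airway secretory, neuroendocrine, HOXA, HOXB, HOXC, cell cycle inhibitor and housekeeping genes had 0 members in either class. BNC1, of basal keratinocytes, had 4830 bp in HCC364 and 8 gained distal regions, and NFIC, a nuclear factor I gene, had 964 bp and 20 gained distal regions. ABCA3, a lipid transporter gene of alveolar type 2 cells, had 911 bp. PLXNA2, a semaphorin receptor gene, had 648 bp, and APOA1, of liver and intestine, 768 bp. The xenobiotic enzyme gene CYP2S1 had 1608 bp, HOXD13, of the HOXD cluster, 1307 bp and the TGF-beta receptor gene TGFBR1 430 bp. The other lines had 0 bp in every case, by the definition of the class. Of 20 immune genes, 5 were in the class, which holds 2.75% of all genes. They were IL1A with 900 bp and IL1B with 1460 bp, which encode interleukin 1, the monocyte marker gene CD14 with 1368 bp, and HLA-DRB1 and HLA-DPB1 with 354 and 442 bp. The HLA-D genes belong to a family of close copies and are uncertain, and PTPRC, the pan-leukocyte marker gene, was acetylated at its ends in no line. With 20000 peaks per list ABCA3, NFIC, PLXNA2, CYP2S1, HOXD13, TGFBR1, IL1A, CD14 and both HLA-D genes left the class. With windows of 5 kb BNC1, HOXD13, TGFBR1, IL1A, CD14 and HLA-DPB1 left it. Other lines were acetylated near some of these genes. Within 25 kb IL1A had 19.9 kb in HCC364, against 1.02, 14.4 and 2.81 kb. CD14 had 5.79 kb, against 3.46, 4.42 and 3.65 kb.

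Genes of signalling and migration outside the lists, chosen after their values were seen, included GLI2, a Hedgehog factor gene, with 2052 bp in HCC364 and 15.0 kb within 25 kb, against 0.448, 0 and 0.762 kb. ADAM12, a metalloprotease gene, had 1016 bp and 24.8 kb, against 3.48, 1.48 and 1.97 kb. GJA1, which encodes connexin 43, had 3621 bp, and MYLK, the myosin light chain kinase gene, had 1027 bp and 42.1 kb, against 17.8, 13.8 and 10.8 kb.

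At the gene ends of both classes NKX2-1 and H3K4me1, which the rule had not used, differed between lines in the direction of H3K27ac. NKX2-1 was found at 53.7% (49.5 to 58.0%) of the 549 genes in HCC364, against 19.3%, 18.6% and 23.1% in NCI-H2087, NCI-H358 and NCI-H441, and H3K4me1 at 66.3%, against 29.9%, 37.2% and 37.5%. At the 333 lost genes NKX2-1 was found at 25.5% (20.9 to 30.6%) in HCC364, against 66.4%, 63.4% and 67.3%, and H3K4me1 at 33.9%, against 71.2%, 76.0% and 84.4%. Over all genes NKX2-1 was at 51.5% in HCC364, against 46.9%, 43.7% and 47.2%, and H3K4me1 at 39.2%, against 43.2%, 45.7% and 54.1%. The NKX2-1 share of the 549 genes in HCC364 was thus near that of all genes. It was under the 83.0% found in HCC364 at genes acetylated in all 4 lines. In NCI-H2087, where the 549 genes were not acetylated, 52.8% carried H3K4me3 at an end and 9.84% RNA polymerase II. Both were under the shares of all genes, 65.9% and 54.1%, and above the 16.7% and 2.93% of genes acetylated in no line.

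Among lung and foregut factors, widths moved in both directions in HCC364. The following were singled out after their values were seen. FOXA1, the forkhead factor gene, was acetylated in all 4 lines but over 1131 bp in HCC364, against 17392, 14651 and 18090 bp in NCI-H2087, NCI-H358 and NCI-H441. SOX2, a factor gene of the foregut and airway, had 721 bp, against 9527, 5955 and 4462 bp. FOXA2 was in the opposite order, with 12654 bp in HCC364, against 1237, 2134 and 0 bp. Among alveolar type 2 genes, SFTPB, a surfactant protein gene, had 15.5 kb within 25 kb in HCC364, against 1.30, 0 and 3.42 kb, and LPCAT1, an enzyme of surfactant lipid, 62.1 kb, against 19.4, 7.96 and 21.0 kb, while SFTPA1 and SFTPA2 had 0 kb in HCC364, against 2.77, 0 and 6.05 kb for SFTPA1 and 1.32, 0 and 3.06 kb for SFTPA2 in the other lines. The list median was 7.94 kb in HCC364, against 2.77, 2.91 and 5.57 kb. Alveolar type 1 genes had 4.97 kb, against 8.01, 10.6 and 10.6 kb.

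Gained distal regions were mostly short and weak, and regions private to another line were likewise short. Their median width was 542 bp in HCC364, against 442, 492.5 and 469 bp for those of NCI-H2087, NCI-H358 and NCI-H441, and the median of the authors' fold in HCC364 was 4.62, where distal regions of all 4 lines had 2990 bp and a fold of 11.1 in HCC364. A region merged from 4 lists is wider by construction. Of the gained regions 5732, or 33.1%, reached −log10 q of 10, and 1153, or 6.66%, were at least 2 kb wide. Lost regions were broader, with a median of 1943 bp, and their median fold was 7.76, 8.57 and 8.05 in the 3 lists that held them. Of the 3375, 122, or 3.61%, had an HCC364 H3K27ac peak within 1 kb and 744, or 22.04%, within 5 kb, and the median gap to one was 16136 bp.

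Each distal region was given to the nearest gene end within 50 kb, which placed 72.0% of gained, 57.6% of lost and 65.6% of common regions. The genes with the most gained regions had varied roles. DAPK1, a death-associated kinase gene (chromosome 9, 87497228 to 87708634), and NRP1, a co-receptor for semaphorins and VEGF (chromosome 10, 33177493 to 33334667), had 28 gained regions each and 0 lost. DAPK1 was acetylated over 98.7 kb within 25 kb in HCC364, against 3.44, 13.5 and 7.27 kb, and NRP1 over 139 kb, against 53.9, 39.0 and 32.2 kb. MAP4K4, a kinase gene of stress signalling, had 27 gained regions and GNB1, a G protein subunit gene, 25. DCBLD2, a neuropilin-like receptor gene, the ligand gene TGFB2 and the histone methyltransferase gene NSD2 had 21 each, and HMGA2, a chromatin protein gene, the integrin gene ITGB1, SPATS2L and NFIC 20 each. CD44, the hyaluronan receptor gene, CDK6, a cell cycle kinase gene, and CLTC, the clathrin heavy chain gene, named after their values were seen, had 19 each. Over all genes the mean was 0.624 gained and 0.0973 lost regions, and long genes with wide gaps around them can take more.

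Lists with the most gained regions were those of TGF-beta and YAP outputs, with a mean of 4.00 per gene over 19 genes, and nuclear factor I, where 20 of the 24 regions of its 4 genes lay at NFIC. Of the 76 regions of the TGF-beta and YAP list, 21 lay at TGFB2 and 16 at SMAD6. In this paragraph SMAD6, AMOTL2, SMAD3, SMAD7 and SEMA3A were picked after their values were seen. Among TGF-beta and YAP genes, 18 of 19 were acetylated at an end in HCC364, against 14, 15 and 13, or 94.7%, against 73.7%, 78.9% and 68.4%, where the shares of all genes were 58.7%, against 58.1%, 56.9% and 56.2%. TGFB2 had 70.6 kb within 25 kb in HCC364, against 4.58, 12.4 and 8.03 kb, and SMAD6, an inhibitory SMAD gene, 44.7 kb with 16 gained regions, against 4.52, 7.12 and 0.501 kb. AMOTL2, a YAP-binding protein gene, had 22402 bp at its ends, against 6288, 2914 and 3390 bp. SMAD3 had less at its ends in HCC364, 6951 bp, against 15786, 17792 and 14952 bp. Within 25 kb it had more, 134.9 kb, against 95.9, 105.3 and 92.4 kb. SMAD7 had 660 bp at its ends, against 0, 5862 and 716 bp. The list median was 21.1 kb, against 8.997, 9.65 and 10.8 kb. MAPK output and receptor tyrosine kinase genes had 18.4 kb, against 14.6, 13.6 and 11.1 kb, and axon guidance genes 11.2 kb, against 4.79, 8.34 and 8.07 kb, with SEMA3A, a semaphorin gene, as an exception at 9.27 kb, against 49.8, 64.9 and 59.9 kb. Housekeeping genes had 8.94 kb, against 8.81, 7.07 and 8.55 kb.

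Lost distal regions were scattered. RNF144B, a ubiquitin ligase gene (chromosome 6, 18387350 to 18468870), had 6 and was the only gene with more than 4. Its acetylated length within 25 kb was 0.802 kb in HCC364, against 13.5, 16.0 and 11.3 kb. ADAP1, ADORA2B, ANKRD46, EZR, MAML3, MAP3K9, MUC16, MYL12BP2, PIBF1, PRDM1 and SERINC2 had 4 each. PRDM1, a repressor gene of differentiation, had 5.80 kb, against 13.5, 14.4 and 8.46 kb, and MUC16, a cell surface mucin gene, 3.33 kb, against 8.95, 12.99 and 9.20 kb. EZR, a gene of microvillus structure, had as many gained regions, 4, as lost. Stretches that held several lost regions, at gene ends or distal, and no HCC364 peak of any of the 3 antibodies numbered 86, and none held more than 3 lost regions. The longest with 3 spanned 920586 bp of chromosome X around MXRA5 and PRKX, and others were one of 37.1 kb in MYO5B (chromosome 18, 50158014 to 50195073), a myosin gene of apical recycling, and one of 23.3 kb in MUC16.

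The strongest gained regions, by the fold of the authors' HCC364 list, included one within ERGIC1 (chromosome 5, 172885063 to 172889326) at a fold of 46.0 and one 20.6 kb from the nearest end of ABCA1, within that cholesterol transporter gene, at a fold of 36.8. Each of the 8 strongest carried NKX2-1 and H3K4me1 in HCC364. Of the other lines, NKX2-1 was found in all 3 at 1 of the 8, near MMP24OS on chromosome 20 (35260790 to 35266069), and in none at the other 7. The strongest lost regions, ranked by the lowest of the other 3 folds, included one within SLC20A2 (chromosome 8, 42489505 to 42505312), with folds of 49.3, 102 and 75.8 in the other lines, one within the junction scaffold gene MAGI1 (chromosome 3, 65951378 to 65956953), and one 30.0 kb from MAL2, a gene of apical transport. All 8 carried NKX2-1 in each other line and 4 of the 8 did in HCC364.

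Over all regions, NKX2-1 and H3K4me1 were used to compare lines, since the choice of regions had not used them. NKX2-1 overlapped 43.7% (43.0 to 44.5%) of gained distal regions in HCC364, against 13.3%, 11.9% and 20.7% in the lists of NCI-H2087, NCI-H358 and NCI-H441, a difference of 28.4 points from the mean of the other lines (SD over them 4.72, n = 3). H3K4me1 overlapped 76.3% in HCC364, against 25.6%, 29.7% and 31.8%, a difference of 47.3 points (SD 3.14). At lost regions NKX2-1 overlapped 42.9% (41.2 to 44.6%) in HCC364, against 86.3%, 86.7% and 91.7%, a difference of -45.4 points (SD 3.03), and H3K4me1 62.3%, against 90.4%, 94.3% and 95.2%, a difference of -31.0 points (SD 2.55). In all 4 cases HCC364 lay outside the range of the other lines. An exact two-sided permutation of which library is HCC364 gave p = 0.25 for each, the smallest that 4 lines allow, so none can reach 0.05.

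The one comparison that can do so takes the private distal regions of every line together. NKX2-1 overlapped on average 56.3% of them in the line that was acetylated and 20.7% in the other lines, a difference of 35.6 points, higher in 4 of 4 lines. For H3K4me1 the values were 78.6% and 35.9%, a difference of 42.7 points, higher in 4 of 4. An exact one-sided permutation of the 4 line labels gave p = 0.0417 for both, the smallest of 24 assignments. After Benjamini-Hochberg adjustment over the 2 marks alone it was 0.0417. That adjustment left out the two-sided permutations of HCC364 against the other lines, which gave p = 0.25 each. With them included the adjusted value would be higher, so 0.0417 holds only for these 2 one-sided tests taken by themselves. Private regions were 43.8% of the distal regions of HCC364, against 23.2%, 27.1% and 17.9% in the other lines. HCC364 had the lowest NKX2-1 share of the lines at its own private regions, 43.7%, against 53.8%, 54.2% and 73.6% in NCI-H2087, NCI-H358 and NCI-H441 at theirs. Within HCC364 the share was higher at wider regions. It was 29.3% of 7871 gained regions under 500 bp, 42.5% of those of 500 to 1000 bp, 67.3% of those of 1000 to 2000 bp and 84.6% of 1153 wider ones. At lost regions it lay between 40% and 43.8% in the same 4 classes.

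**Figure D4:**
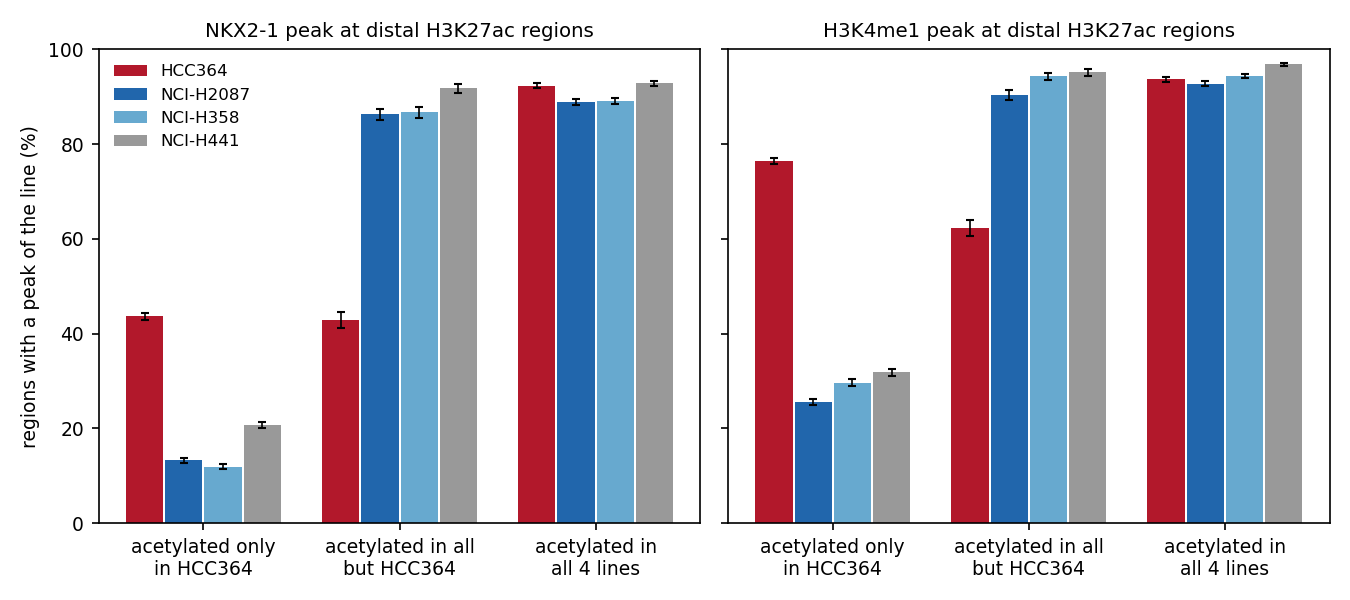
Share in percent of distal H3K27ac regions that overlap an NKX2-1 (left) or H3K4me1 peak (right) of HCC364, NCI-H2087, NCI-H358 and NCI-H441, for regions acetylated only in HCC364 (n = 17315), in all lines but HCC364 (n = 3375) and in all 4 lines (n = 11080), with exact 95% intervals for counting error. HCC364 is highest at the first set, at 43.7% and 76.3%, and lowest at the second, at 42.9% and 62.3%, while at the common regions the lines lie between 88.8% and 96.8%.

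Many regions kept a mark without acetylation. Of the 3375 lost regions, 36.9% carried both NKX2-1 and H3K4me1 in HCC364, 25.4% H3K4me1 alone, 5.93% NKX2-1 alone and 31.7% neither. NKX2-1 was present in all other lines and not in HCC364 at 1302, or 38.6%. In this HCC364 did not stand outside the other lines. H3K4me1 was found in the line itself at 50.5% of regions lost in NCI-H2087, 62.9% of those lost in NCI-H358 and 73.9% of those lost in NCI-H441, and NKX2-1 at 39.8%, 44.4% and 59.3%. Of the gained regions, 40.4% carried both marks in HCC364, 36.0% H3K4me1 alone, 3.36% NKX2-1 alone and 20.3% neither. At 53.5% of gained regions no line had an NKX2-1 peak, and at 52.5% no other line had H3K4me1.

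The factor lists of NCI-H2087 describe what lay at the lost regions in a line that acetylates them. FOXA1 was found at 73.4% (71.8 to 74.8%) of regions lost in HCC364, against 59.6% of those lost in NCI-H358, 57.9% of those lost in NCI-H441 and 71.2% of regions of all 4 lines. FOXA2 gave 76.2%, against 62.4%, 61.5% and 73.4%. SOX2 was at 21.7%, against 12.2%, 10.9% and 19.1%, and the acetyltransferase EP300 at 16.0%, against 8.61%, 5.17% and 20.9%. The AP-1 subunit c-Jun was at 45.9%, against 46.8%, 39.5% and 61.0%. RNA polymerase II was at 22.8%, against 18.4%, 18.0% and 47.7%, and the insulator protein CTCF at 16.6%, against 22.1%, 23.3% and 30.1%. Thus FOXA1, FOXA2, SOX2, EP300 and RNA polymerase II were more frequent at regions lost in HCC364 than at those lost in NCI-H358 or NCI-H441. CTCF was less frequent. These shares come from 1 library per factor in 1 line and were not tested. The regions lost in HCC364 also had a higher median H3K27ac fold in NCI-H2087, 7.76, against 6.92 and 6.09 for those lost in NCI-H358 and NCI-H441. The part of this in the shares was not tested. At gained regions FOXA1 of NCI-H2087 was found at 9.73% and H3K4me3 at 2.77%.

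Gained and lost regions were unevenly spread over chromosomes. Gained regions were 40.7% (38.2 to 43.3%) of the distal regions of chromosome 22, 33.5% of chromosome 19 and 32.2% of chromosome 9, but 10.7% (9.73 to 11.7%) of chromosome 6 and 10.8% of chromosome 13. Lost regions were 8.50% of chromosome 6, 7.80% of chromosome 13 and 2.36% of chromosome 22. The local background of HCC364 H3K27ac peaks, as a ratio to the median of the library, moved with part of this. It was at its floor of 0.808 on chromosomes 6, 13, 14, 16, 18 and X and was 1.11 on chromosome 22, 1.33 on chromosome 20, 1.05 on chromosome 9 and 0.86 on chromosome 19. In NCI-H2087, NCI-H358 and NCI-H441 the ratio was 0.702, 0.790 and 0.732 on chromosome 19. In the same order it was 0.738, 0.790 and 0.959 on chromosome 22 and 0.787, 1.05 and 0.776 on chromosome 9. On chromosome 6 it was 0.804, 0.819 and 0.962, and on chromosome 13 it was 0.787, 0.909 and 0.776. The background follows the number of DNA copies as well as other features of the chromatin, and its part in the counts was not tested. In HCC364 the median ratio over all gained peaks was 1.00, against 1.03 for its peaks in regions of all 4 lines.

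**Figure D5:**
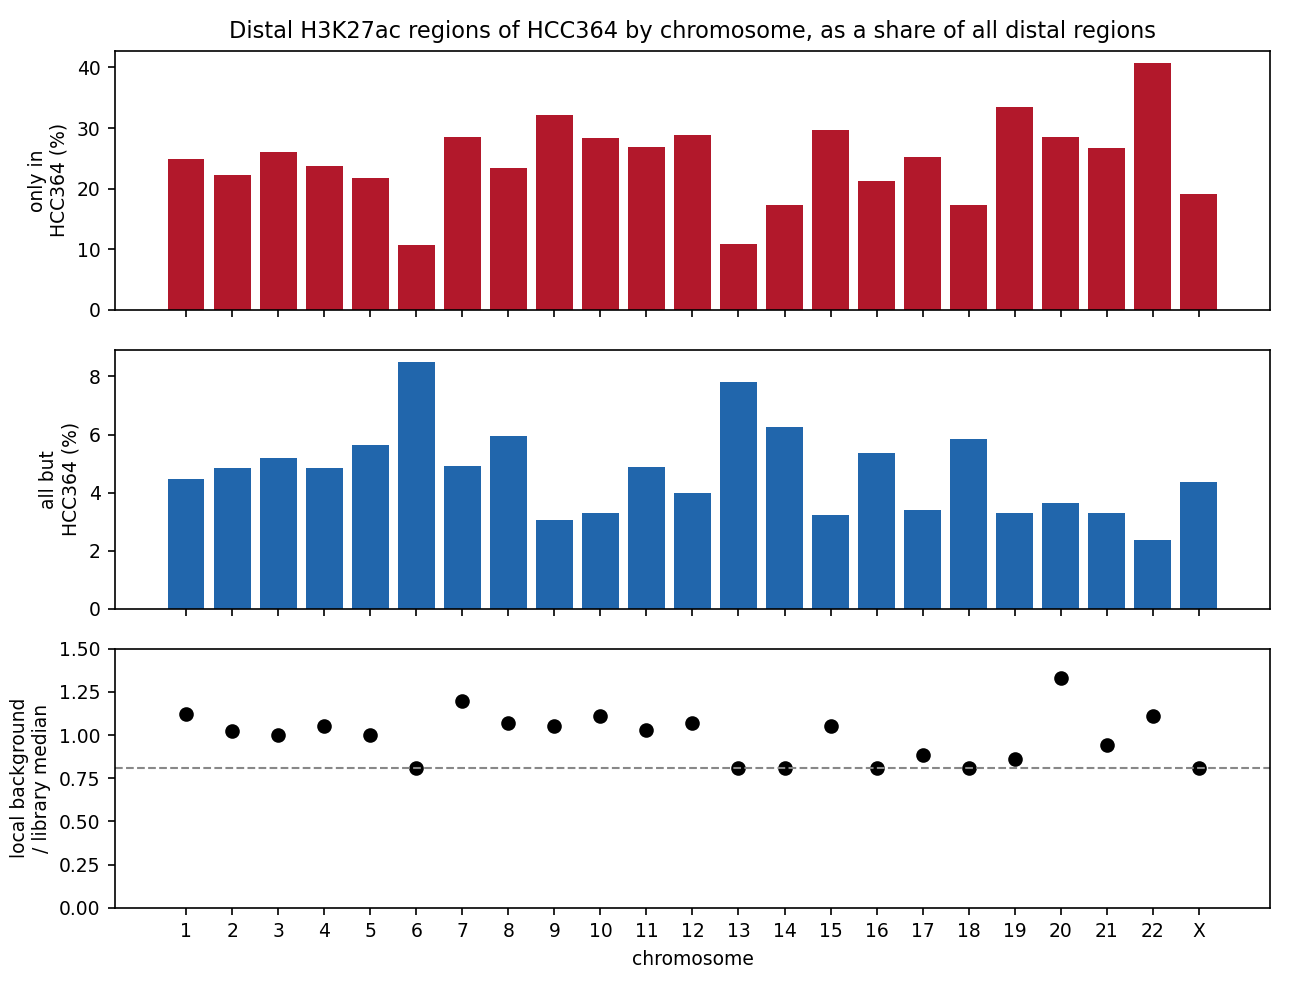
Gained (top) and lost (middle) distal regions of HCC364 as a percentage of all distal regions of each chromosome, and the median local background of HCC364 H3K27ac peaks divided by the median of the library (bottom), with the lowest value the list allows as a dashed line. Chromosomes 6 and 13 have the lowest shares of gained regions, 10.7% and 10.8%, and the highest of lost regions, 8.50% and 7.80%, with the background at the dashed line.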

How the data were processed

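Chromatin immunoprecipitation followed by sequencing was measured in 4 lines, and 20 peak lists in narrowPeak form were used. The authors deposited for each peak a fold over local background, and a −log10 p and a −log10 q, all written by their peak caller. Per the submitters' processing notes, the tools included MACS2 (versions 2.1.1 and 2.2.7.1), Bowtie2 2.2.9, bedtools, Trimmomatic 0.36 and SAMtools 1.9, with the build hg38. Which version made which list, and the total depth, are not given in the sources used here. Each list was called on 1 library. The lowest −log10 q of a list lay between 3.00 and 3.14 in all 20 lists, so they appear to share a cutoff. Weak peaks can fall below it, so absence from a list does not show that the mark was absent. Folds were compared within a list, except that lost regions were ranked by the lowest fold of the other lines. For lost regions the folds of those lines are given side by side as a description.

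Only chromosomes 1 to 22 and X entered, which left out 0.061% to 0.502% of a list, and peaks of the 4 H3K27ac lists were merged with an overlap of 1 bp. The local background of a peak was solved from its fold and −log10 p, within 0.01, as a measure of relative depth. Gene ends came from a RefSeq table without exons, and strand was known for 15813 genes. The text names the 12 genes of each class with the widest acetylated ends and the members of the class in 23 lists (339 genes), with the 10 genes with most gained and with most lost distal regions (more where tied), and examples among the 8 strongest regions and the 6 longest runs of lost regions. A few of these genes are not reported here. Other genes are marked where named. Members and lists were chosen with earlier results of these data known. Lines were compared by exact permutation over libraries, and intervals of shares are Clopper-Pearson (exact, counting error alone). Alternatives were shorter lists, a stricter q, summit windows, other gene windows and leaving out a line. Calculations used Python 3.11.15 with numpy 2.4.6, pandas 2.3.3, scipy 1.17.1 and matplotlib 3.10.9, and were tested on simulated peak lists. The input libraries were not analysed here.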

Additional observations from a re-analysis of the deposited data

How the results depend on the processing

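The gained distal regions of HCC364 numbered 17315, and 8674 with the 40000 strongest peaks of each list, 3277 with 20000 and 7607 with −log10 q of at least 10. Lost distal regions numbered 3375, and 1637 with 20000 peaks. Genes acetylated only in HCC364 numbered 549, and 324 when no other line had H3K27ac within 5 kb and 352 at the gene start alone. With 40000 and 20000 peaks, 505 and 700 genes were acetylated only in HCC364 and 368 and 459 in all lines but HCC364. Without one of the other lines, lost distal regions were 5249 to 6166, gained ones 19408 to 19933, genes only in HCC364 666 to 758 and genes lost 419 to 480, since fewer lines then have to lack or carry the mark. The CAGGTG share of lost genes, whose alternatives were chosen after seeing the data, was 38.7%, and 29.6% with 20000 peaks and 33.2% to 41.8% in the other settings. The cause was not tested. The differences of NKX2-1 kept their direction with 40000 peaks, 50000 peaks per mark list, summit windows, 5 kb windows and each other line left out (other settings were not run), at 21.2 to 42.9 points for gained and -49.1 to -31.4 points for lost regions, as did those of H3K4me1, at 39.6 to 49.4 and -52.3 to -22.9 points. Of 46 named genes, 44 stayed in their class with 40000 peaks, 29 with 20000, 41 with the stricter q, 30 on summit windows, 22 with 5 kb windows, 26 at the gene start alone, where genes without a strand drop out, and all 46 when each other line was left out in turn. Of the 27 only in HCC364, 12 had no H3K27ac within 5 kb in another line. No paired analysis was possible because each line and antibody has 1 library. Depth limits every absence, since weak peaks may fall below a list's threshold.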
